A study of Mus musculus with 72 samples.

Results

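The comparison described here is Ts1Cje against disomic mice in the cerebral cortex at postnatal day 84 (P84). Its members are the 6 arrays labelled P84 cerebral cortex, 3 of Ts1Cje and 3 of disomic mice, out of 72 arrays in the series and 24 arrays of cerebral cortex. Ts1Cje mice carry an extra copy of the distal part of mouse chromosome 16 (MMU16), joined to the end of MMU12. They lack 1 copy of a few genes at that end of MMU12, and a neomycin cassette disrupts Sod1, at the proximal limit of the MMU16 segment, on the extra copy. Disomic mice (C57BL/6) were littermates without the rearrangement. All came from Ts1Cje fathers and C57BL/6 mothers, were labelled female and were untreated. Each array held RNA of 1 cortex on an Affymetrix mouse genome array, and all levels below are on the log2 scale. Cortex at P1, P15 and P30, and hippocampus and cerebellum at P84, were measured in the same way.

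The distal part of MMU16 corresponds to much of human chromosome 21, which is present in an extra copy in Down syndrome. With 1 copy more than usual, a transcript that followed gene dosage would be 1.5-fold higher, which is 0.58 on the log2 scale. The segment includes receptors for interferons, proteins of membrane traffic, chromatin proteins, and enzymes of purine synthesis and of lipid anchors. The adult cortex holds glutamatergic and GABAergic neurons, astrocytes, oligodendrocytes and other cells, and a value from whole tissue averages over them, so fewer cells of a type and less RNA per cell cannot be told apart.

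Promoter sequences of 5 genes are shown as sequence context, and no test below used them. Dnah11 and Itgb8 lie in the deleted part of MMU12 and had differences of opposite sign, and Pigp, Psmg1 and Ifnar1 are triplicated genes that passed the test. Each is a window of 300 bases around an annotated transcription start (RefSeq, build GRCm38.p6), 5′ to 3′ on the strand of the gene. Pigp has 4 windows, and the one shown was picked because it holds GCATGCG, so its match is no finding. Capitals mark GCATGCG, the core of the motif known for the factor NRF1, which can overlap itself on the other strand, and GGGCGG, the GC box known to bind Sp factors, searched on both strands.
Dnah11, chr12:118198994-118199293, minus strand: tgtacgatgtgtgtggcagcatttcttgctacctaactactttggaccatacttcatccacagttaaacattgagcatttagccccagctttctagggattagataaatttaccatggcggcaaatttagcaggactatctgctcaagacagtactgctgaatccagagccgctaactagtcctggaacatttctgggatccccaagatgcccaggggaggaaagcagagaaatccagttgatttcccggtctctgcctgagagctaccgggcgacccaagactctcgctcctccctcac
Itgb8, chr12:119238227-119238526, minus strand: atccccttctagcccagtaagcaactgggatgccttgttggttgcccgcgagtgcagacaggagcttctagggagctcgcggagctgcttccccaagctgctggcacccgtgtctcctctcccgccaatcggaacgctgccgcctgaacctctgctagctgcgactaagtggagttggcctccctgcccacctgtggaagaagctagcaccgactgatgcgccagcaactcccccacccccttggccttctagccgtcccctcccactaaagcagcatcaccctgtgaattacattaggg
Pigp, chr16:94370661-94370960, minus strand: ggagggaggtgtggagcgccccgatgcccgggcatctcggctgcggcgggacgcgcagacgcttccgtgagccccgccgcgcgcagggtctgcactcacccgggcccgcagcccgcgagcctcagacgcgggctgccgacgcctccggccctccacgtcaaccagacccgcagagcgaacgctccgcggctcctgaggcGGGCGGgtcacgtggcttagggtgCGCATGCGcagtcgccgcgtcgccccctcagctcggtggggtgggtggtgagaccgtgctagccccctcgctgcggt
Psmg1, chr16:95990911-95991210, minus strand: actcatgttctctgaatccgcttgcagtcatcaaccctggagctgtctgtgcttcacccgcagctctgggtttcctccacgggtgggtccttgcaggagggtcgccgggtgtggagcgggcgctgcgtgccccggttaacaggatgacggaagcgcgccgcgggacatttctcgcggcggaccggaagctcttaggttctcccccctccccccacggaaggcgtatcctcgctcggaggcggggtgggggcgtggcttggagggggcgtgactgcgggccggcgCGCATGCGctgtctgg
Ifnar1, chr16:91484965-91485264, plus strand: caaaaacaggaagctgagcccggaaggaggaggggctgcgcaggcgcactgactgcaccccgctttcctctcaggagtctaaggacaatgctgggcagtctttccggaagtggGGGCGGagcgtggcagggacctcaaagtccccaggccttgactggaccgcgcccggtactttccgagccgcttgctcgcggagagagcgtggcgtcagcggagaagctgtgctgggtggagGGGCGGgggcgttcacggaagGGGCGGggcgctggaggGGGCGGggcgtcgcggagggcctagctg
GCATGCG was found in 1177 of the 32851 windows of all genes (3.58%), and in 4 of the 15 windows of the 12 triplicated genes that passed the test, which belong to Donson, Pigp and Psmg1. GGGCGG was found in 11714 of all windows (35.7%) and in 12 of those 15. Counted by gene, GGGCGG was in a window of 9 of the 12 genes that passed and of 27 of the 36 expressed triplicated genes with a window. For GCATGCG these were 3 of the 12 and 8 of the 36. A further motif that was searched and is not marked, CCGGAAG, was in 5 of the 12 and 10 of the 36. The windows of Dnah11 and Itgb8 held neither GCATGCG nor GGGCGG. The window of Pigp shares 128 bases with that of Ttc3, which is read in the other direction. These are matches of letters only.

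Of the 6 arrays, 1 stood apart. Disomic replicate 3 was dim, with an upper quartile of 5.23, while that of the Ts1Cje arrays was 5.76 to 5.83 and that of the other disomic arrays 5.81 and 5.82. Genes with a mean of at least 5 over the 6 arrays were counted as expressed. Outside the altered segments 5095 of 7580 expressed genes (67.2%) had their lowest value on disomic replicate 3, and their median difference (Ts1Cje minus disomic) was 0.12 with and -0.02 without that array. The main counts and the difference of each named gene that passed the test are therefore given with and without it. The 6 arrays correlated with each other at 0.970 to 0.995. Slc17a7, the vesicular glutamate transporter of cortical neurons, was bright in both groups, with 10.54, 10.10 and 9.42 in Ts1Cje and 10.40, 10.87 and 9.72 in disomic mice. The label female went against the markers of sex: Xist, the RNA of the inactive X chromosome, was between 1.82 and 2.42 in Ts1Cje and between 1.86 and 2.76 in disomic mice over 3 probe sets, while Eif2s3y of the Y chromosome was at 7.41, 8.21 and 8.36 in Ts1Cje and 7.66, 7.92 and 7.31 in disomic mice. The same held in both groups.

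The first question was which transcripts differed between Ts1Cje and disomic cortex. Differentially expressed genes (DEGs) had to reach a moderated t of at least 4 in size and an adjusted p of at most 0.05 (limma, Benjamini-Hochberg over all probe sets). This was met by 20 of 45101 probe sets (0.0443%), and all 20 were higher in Ts1Cje. Of the 20, 13 belong to 12 triplicated genes, 1 to Dnah11, 1 to Sod1 and 5 to the rest of the genome. Without disomic replicate 3 the number was 1 (0.00222%), the probe set of Dnah11, and 0 of the 12 triplicated genes passed. Brwd1, Get1, Pigp, Psmg1 and Vps26c then had differences of 0.75 to 1.01 and an adjusted p of 0.0839 each (limma). At an unadjusted p under 0.05 there were 3564 probe sets with and 1091 without that array. Other single arrays also moved the number, which was 7 without Ts1Cje replicate 2, 6 without Ts1Cje replicate 3 and 32 without disomic replicate 2. With equally numbered Ts1Cje and disomic arrays of an age as a block, called the pair below, it was 31 (0.0687%). The labels number the replicates but do not say that equal numbers mark littermates. Of the 31, 18 belong to 17 triplicated genes, 2 to Sod1, 1 to the deleted part of MMU12 and 10 to the rest of the genome. With the block and without disomic replicate 3 it was 5. Of these, 2 belong to triplicated genes (Brwd1 and Vps26c), 1 to the deleted part of MMU12 and 2 to the rest of the genome. The other genes given below as passing with the block did not pass with it once that array was left out.

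Interferon receptors were the first group of triplicated genes. The segment holds 4 such genes, of which 3 were expressed and 2 were DEGs. Ifnar2, a chain of the type I interferon receptor, had the largest difference of the expressed triplicated genes when each was read from its brightest probe set. It counted as expressed only through the Ts1Cje arrays, as its disomic mean was 4.46 (4.69 without disomic replicate 3). With expression judged on disomic replicates 1 and 2, Ifnar2 dropped out and the largest difference was 1.37. Ifnar2 was at 5.96, 6.23 and 5.44 in Ts1Cje and 4.68, 4.70 and 3.99 in disomic mice. Every Ts1Cje value lay above every disomic value, and the difference was 1.42 ± 0.27 (SE, 2.68-fold, limma adjusted p = 0.0151). Without disomic replicate 3 it was 1.19 (adjusted p = 0.554). Dimmer probe sets of Ifnar2 differed by 0.67 and 0.35. Ifnar1, the other chain, was at 6.10, 6.78 and 6.97 in Ts1Cje and 5.34, 5.48 and 4.81 in disomic mice, again without overlap. Its difference was 1.41 ± 0.29 (limma adjusted p = 0.029), and 1.21 without the dim array (adjusted p = 0.816). A second, slightly brighter probe set of Ifnar1 differed by 1.27 and did not pass (limma adjusted p = 0.233). Il10rb, a receptor chain used by interleukin-10 and the lambda interferons, was at 5.92, 6.36 and 6.58 in Ts1Cje and 5.79, 4.98 and 5.04 in disomic mice, and its difference of 1.02 did not pass either (limma adjusted p = 0.344). Ifngr2, a chain of the interferon gamma receptor, had a mean under 5, with 5.94, 3.54 and 4.05 in Ts1Cje and 4.70, 3.75 and 3.31 in disomic mice, and its groups overlapped.

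**Figure D1:**
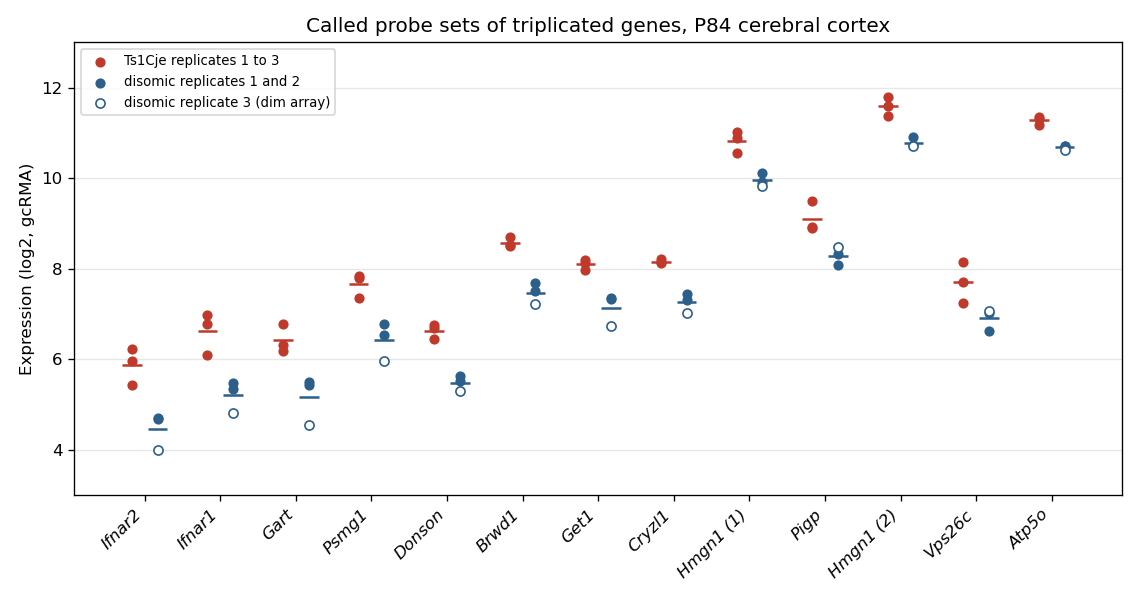
Log2 expression on each of the 6 arrays (points) with the group means (bars) for the 13 probe sets of 12 triplicated genes that were DEGs, Ts1Cje left of disomic, with the dim disomic replicate 3 as an open circle. In each probe set the 3 Ts1Cje values lie above the 3 disomic values, and disomic replicate 3 is the lowest of the 6 in 11 of the 13.

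Genes of membrane traffic and the synapse formed a second group, in which 7 of 10 were expressed and 2 were DEGs. Their median difference was 0.80 with and 0.75 without disomic replicate 3. Get1, a subunit of the receptor that inserts tail-anchored proteins into the endoplasmic reticulum, was at 7.98, 8.19 and 8.13 in Ts1Cje and 7.36, 7.34 and 6.74 in disomic mice. The difference was 0.95 ± 0.15 (1.94-fold, limma adjusted p = 0.000733), and 0.75 without disomic replicate 3. Vps26c, part of a complex that returns cargo from endosomes, was at 7.25, 7.72 and 8.15 in Ts1Cje and 6.62, 7.03 and 7.07 in disomic mice. Here the dim array was the highest of its group, so the difference of 0.80 ± 0.16 (limma adjusted p = 0.029) became 0.89 without it. Other members missed the threshold, although the groups of all 7 did not overlap, as in 7.89% of the expressed genes outside the segments (8.34% without disomic replicate 3). Dscam, a neuronal cell adhesion molecule, was at 6.67, 7.20 and 7.37 in Ts1Cje and 5.90, 6.08 and 5.73 in disomic mice, a difference of 1.18 (limma adjusted p = 0.101). Itsn1, a scaffold of endocytosis, was at 8.59, 9.04 and 9.19 in Ts1Cje and 8.06, 8.20 and 7.46 in disomic mice, a difference of 1.03 (limma adjusted p = 0.227). A dimmer probe set of Itsn1 had a larger difference than that of Ifnar2, 1.60 with and 1.13 without disomic replicate 3, and did not pass (limma adjusted p = 0.0819). Tmem50b, a membrane protein, averaged 9.94 ± 0.12 in Ts1Cje and 9.38 ± 0.19 in disomic mice (SD, n = 3 each), a difference of 0.55 (limma adjusted p = 0.351). Synj1, a phosphatase needed to uncoat synaptic vesicles, had several probe sets. The brightest differed by 0.60 (limma adjusted p = 0.243), and another by 1.04, which passed with the pair as a block (limma adjusted p = 0.0179).

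Among 15 genes of transcription and chromatin, 8 were expressed and 2 were DEGs, with a median difference of 0.82 with and 0.64 without disomic replicate 3. Brwd1, a bromodomain protein, was at 8.50, 8.52 and 8.71 in Ts1Cje and 7.51, 7.68 and 7.22 in disomic mice. The difference was 1.11 ± 0.18 (2.15-fold, limma adjusted p = 0.00101), and 0.98 without the dim array. Other probe sets of Brwd1 did not pass. Hmgn1, a nucleosome-binding protein, was the one triplicated gene with 2 DEG probe sets. The brighter was at 11.38, 11.60 and 11.79 in Ts1Cje and 10.74, 10.90 and 10.71 in disomic mice, a difference of 0.81 ± 0.16 (limma adjusted p = 0.018) and of 0.77 without disomic replicate 3. The other differed by 0.86 (limma adjusted p = 0.0294) and by 0.80 without that array. Morc3, a nuclear ATPase, was the expressed gene with the second highest difference by brightest probe set, and much of it came from 1 array. It was at 8.21, 7.98 and 7.92 in Ts1Cje and 7.42, 7.25 and 5.33 in disomic mice, a difference of 1.37 with and 0.70 without disomic replicate 3, and it passed with the pair as a block (limma adjusted p = 0.0181). At the other end were Olig1 and Olig2, transcription factors of oligodendrocytes. Olig1 was at 9.84, 9.79 and 9.99 in Ts1Cje and 9.62, 9.62 and 9.30 in disomic mice, a difference of 0.36 and of 0.25 without the dim array. Olig2 was at 6.62, 6.37 and 6.03 in Ts1Cje and 6.11, 6.30 and 5.75 in disomic mice, with overlap, and differed by 0.29 and 0.14.

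The group of mitochondria and metabolism had the most DEGs, 4 of 9 genes with 7 expressed, and a median difference of 0.91 with and 0.77 without disomic replicate 3. Gart, a multifunctional enzyme of purine synthesis, was at 6.19, 6.31 and 6.79 in Ts1Cje and 5.50, 5.44 and 4.54 in disomic mice. The difference was 1.27 ± 0.22 (2.41-fold, limma adjusted p = 0.00615), and 0.96 without the dim array, which was the lowest. A further probe set of Gart did not pass. Pigp, a subunit of the enzyme that starts the glycosylphosphatidylinositol anchor, was at 8.92, 8.91 and 9.49 in Ts1Cje and 8.07, 8.32 and 8.48 in disomic mice. In this gene the dim array was the brightest of its group, and the difference of 0.82 ± 0.16 (limma adjusted p = 0.0171) became 0.91 without it. Cryzl1, a relative of quinone oxidoreductases, was at 8.12, 8.22 and 8.14 in Ts1Cje and 7.44, 7.31 and 7.02 in disomic mice in the probe set that passed, 0.90 ± 0.17 (limma adjusted p = 0.00826) and 0.78 without the dim array. A brighter probe set of Cryzl1 differed by 1.08 and did not pass (limma adjusted p = 0.296). Atp5o, a subunit of ATP synthase, was at 11.35, 11.18 and 11.31 in Ts1Cje and 10.71, 10.72 and 10.62 in disomic mice. This was the smallest difference of the DEG probe sets in the segment, 0.59 ± 0.12 or 1.51-fold (limma adjusted p = 0.0316), close to gene dosage, and 0.56 without disomic replicate 3. Another probe set of Atp5o did not pass. Mrps6, a protein of the mitochondrial ribosome, was at 8.43, 8.98 and 9.24 in Ts1Cje and 8.09, 8.26 and 7.57 in disomic mice, and passed with the pair as a block (limma adjusted p = 0.0275). Cbr1, a carbonyl reductase, was not a DEG, at 8.09, 8.35 and 8.10 in Ts1Cje and 7.43, 7.60 and 7.53 in disomic mice, but its difference hardly depended on the dim array (0.66 with and 0.67 without).

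Of 5 genes of RNA handling and replication, 4 were expressed and 1 was a DEG. Donson, a replication protein, was at 6.45, 6.69 and 6.75 in Ts1Cje and 5.51, 5.64 and 5.31 in disomic mice. The difference was 1.14 ± 0.21 (2.21-fold, limma adjusted p = 0.00807), and 1.05 without disomic replicate 3. Son, a splicing cofactor encoded next to Gart on the other strand, was at 10.70, 10.93 and 10.98 in Ts1Cje and 9.86, 10.27 and 9.96 in disomic mice in its brightest probe set. The groups did not overlap and the difference was 0.84, but it did not pass (limma adjusted p = 0.375). Of 8 genes of signalling and proteostasis, 6 were expressed and 1 was a DEG. Psmg1, a chaperone of proteasome assembly, was at 7.35, 7.79 and 7.83 in Ts1Cje and 6.53, 6.77 and 5.96 in disomic mice, a difference of 1.24 ± 0.19 (2.36-fold, limma adjusted p = 0.000733) and of 1.01 without the dim array. Ttc3, a ubiquitin ligase, was at 12.73, 12.88 and 12.72 in Ts1Cje and 12.29, 12.53 and 12.10 in disomic mice. Its difference of 0.47 missed the threshold (limma adjusted p = 0.0819) and passed with the pair as a block (limma adjusted p = 0.0205). Rcan1, an inhibitor of calcineurin, was at 8.17, 8.65 and 8.49 in Ts1Cje and 7.78, 7.99 and 6.99 in disomic mice, which is 0.85 with and 0.55 without disomic replicate 3. Dyrk1a, a kinase often studied in Down syndrome, was at 9.23, 8.77 and 8.30 in Ts1Cje and 8.53, 8.23 and 7.91 in disomic mice. Its groups overlapped, and the difference of 0.55 ± 0.32 did not pass (limma adjusted p = 0.68).

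Channels and transporters were mostly below the level taken as expressed, with 1 of 8 above it and 0 DEGs. That gene, Slc5a3, an inositol transporter, was at 7.38, 7.33 and 7.51 in Ts1Cje and 7.42, 7.65 and 6.88 in disomic mice, the smallest difference of the expressed triplicated genes (0.09 with and -0.13 without disomic replicate 3). A second probe set of Slc5a3 was at 7.58, 7.10 and 7.74 in Ts1Cje and 7.04, 6.22 and 6.19 in disomic mice and differed by 0.99, so the gene had no single answer.

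Taken over the segment, 77 triplicated genes were measured and 38 counted as expressed. Because the Ts1Cje arrays entered the mean used for that, counts over the 38 are descriptions. All 38 differences were above 0, against 70.4% of the 7580 expressed genes outside the segments, and 30 were above 0.58, against 5.4%. In 32 of the 38 every Ts1Cje value lay above every disomic value, against 7.89% outside. Without disomic replicate 3, 37 were above 0 (46.7% outside), 23 were above 0.58 (1.6% outside) and 32 did not overlap (8.34% outside). The median difference was 0.82 with and 0.70 without the array. Relative to the median of the genes outside the segments these are 0.70 and 0.72, or 1.62-fold and 1.64-fold. With expression judged on disomic replicates 1 and 2 alone, 35 genes remained in the count and their medians were 0.82 and 0.69. Over all 77 genes 60 differences were above 0 and the median was 0.50 (66 and 0.35 without the array). The 39 genes with a mean under 5, among them Kcnj6, Runx1 and Sim2, had a median of 0.03 (0.07 without the array).

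**Figure D2:**
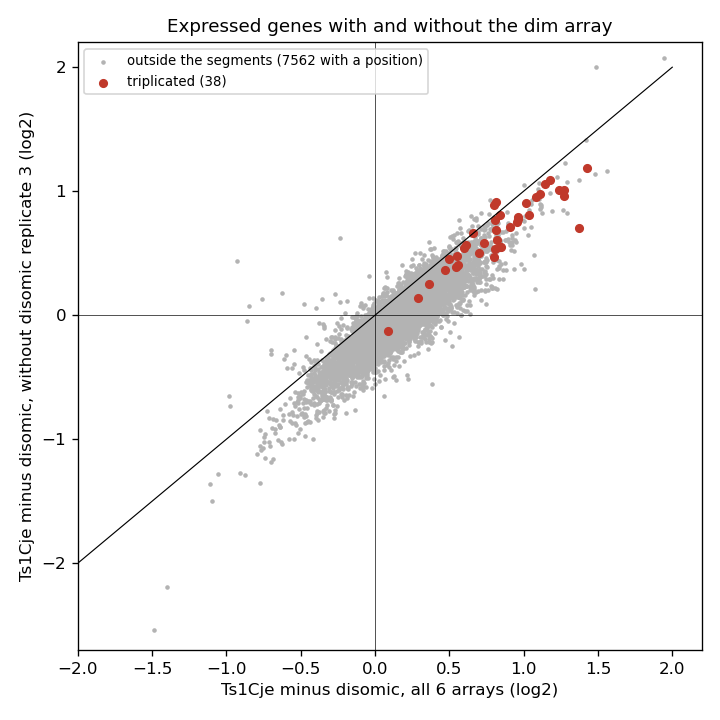
Difference (Ts1Cje minus disomic, log2) of each expressed gene with all 6 arrays and without disomic replicate 3, with the line of equal values. Genes outside the segments have medians of 0.12 and -0.02, and the 38 triplicated genes, at medians of 0.82 and 0.70, lie above most of them on both axes.

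Along MMU16 the change in level came at Sod1. The 10 expressed genes nearest to Sod1 on its proximal side, from Atp5j to Tiam1, had a median difference of 0.15 with and 0.04 without disomic replicate 3. The first 10 expressed triplicated genes beyond it had 0.80 and 0.54, and the last 10 had 0.88 and 0.78. All 209 expressed genes proximal to Sod1 had 0.16 and -0.01, inside the range of the medians of the other chromosomes (0.09 to 0.16, and -0.06 to 0.01). Genes that correspond to human chromosome 21 but lie on MMU10 and MMU17 have the usual copy number in Ts1Cje. The 20 expressed ones on MMU10 had medians of 0.15 and 0.04, and the 5 on MMU17 had 0.26 and 0.15. Neither list held a DEG, beside 2 of all 18110 measured genes outside the segments.

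**Figure D3:**
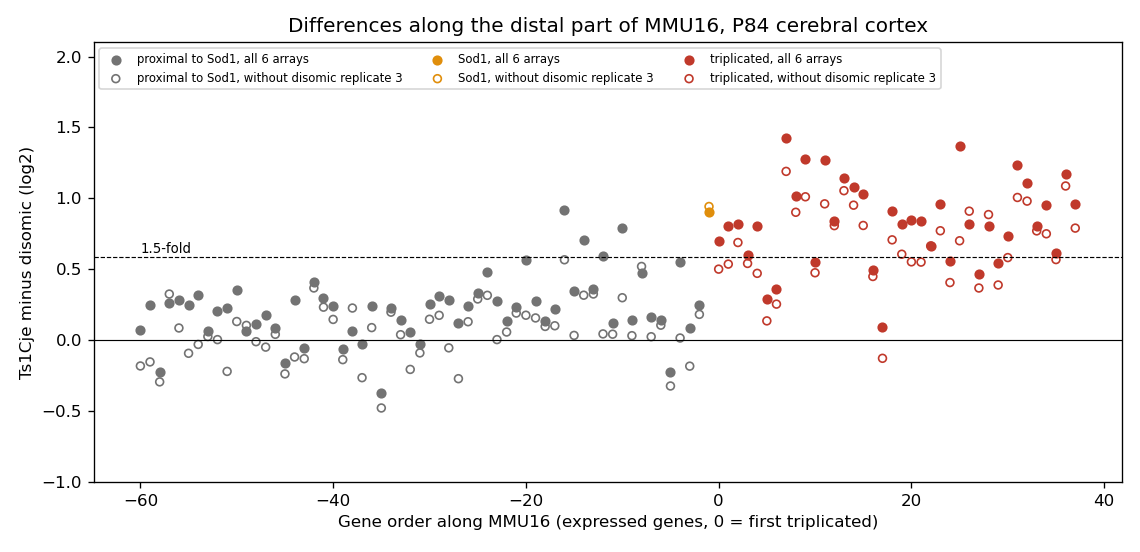
Difference (Ts1Cje minus disomic, log2) of expressed genes in their order along MMU16, with all 6 arrays and without disomic replicate 3. Genes proximal to Sod1 scatter around medians of 0.16 and -0.01, and 30 of the 38 triplicated genes lie above 0.58 with all arrays.

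At the deleted end of MMU12 Dnah11 had the largest difference of all DEGs. Dnah11, which encodes a heavy chain of ciliary dynein, was at 8.53, 8.45 and 8.14 in Ts1Cje and 2.89, 2.95 and 2.54 in disomic mice. The difference was 5.58 ± 0.23 (limma adjusted p = 9.24e-25), and 5.46 without disomic replicate 3 (adjusted p = 9.11e-22). The disomic values lay below the medians of their arrays, 3.22 to 3.24, so the transcript was not shown to be above background there and the measured 47.9-fold has no firm denominator. Similar differences were measured in cortex at P1 (5.90), P15 (5.81) and P30 (5.68), and at P84 in hippocampus (6.02) and cerebellum (5.26). Itgb8, an integrin chain that activates TGF-beta, was at 8.61, 8.74 and 8.83 in Ts1Cje and 9.32, 9.38 and 9.33 in disomic mice. Every Ts1Cje value lay below every disomic value, the dim array included, against 0.884% of the expressed genes outside the segments, but the difference of -0.62 ± 0.18 did not pass (limma adjusted p = 0.318), nor did that of -0.62 without disomic replicate 3 (adjusted p = 1.00). Tmem196, a membrane protein, was at 5.81, 6.04 and 6.01 in Ts1Cje and 7.29, 7.24 and 6.05 in disomic mice, a difference of -0.91 with and -1.31 without disomic replicate 3, and it was not a DEG. Sp4, a transcription factor, was at 5.49, 5.43 and 5.31 in Ts1Cje and 5.94, 5.76 and 4.65 in disomic mice, which is -0.04 with and -0.44 without that array. Sp8 and Macc1 were under 3 on all arrays. The 10 expressed MMU12 genes nearest to Dnah11 on its proximal side had medians of 0.02 and -0.08.

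**Figure D4:**
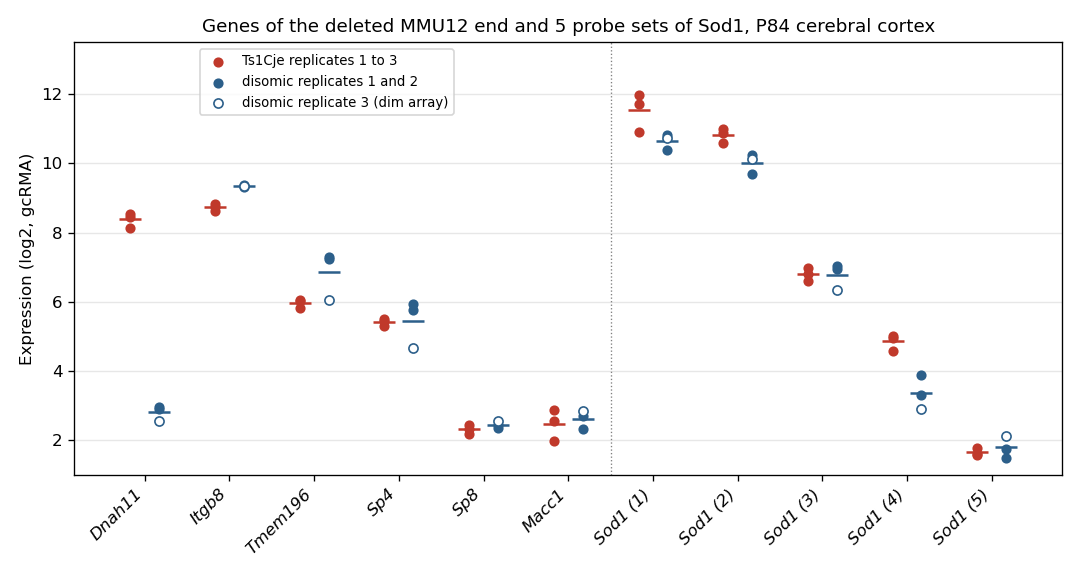
Log2 expression on each of the 6 arrays (points) with the group means (bars) for genes of the deleted MMU12 end and for the probe sets of Sod1, Ts1Cje left of disomic, with disomic replicate 3 as an open circle. Dnah11 is above 8 in Ts1Cje and under 3 in disomic mice, and Itgb8 is lower in all 3 Ts1Cje samples.

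Sod1, the cytosolic superoxide dismutase that the cassette disrupts on the extra segment, gave different answers by probe set. The DEG was a dim probe set, at 4.58, 5.02 and 4.95 in Ts1Cje and 3.88, 3.29 and 2.90 in disomic mice (1.49 ± 0.29, limma adjusted p = 0.018), and differed by 1.26 without disomic replicate 3 (adjusted p = 0.622). The brightest was at 10.91, 11.73 and 11.99 in Ts1Cje and 10.37, 10.82 and 10.72 in disomic mice, which did not overlap, and differed by 0.90 (limma adjusted p = 0.543). A further bright one differed by 0.80 and passed with the pair as a block (limma adjusted p = 0.0127), but not with the block and without the dim array (adjusted p = 0.114). In contrast, another was at 6.61, 6.97 and 6.79 in Ts1Cje and 7.03, 6.94 and 6.34 in disomic mice, and differed by 0.02 with and -0.19 without disomic replicate 3. The last was under 3 on all arrays.

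Outside the segments 5 probe sets were DEGs, of which 2 carry a gene name. Mgst1, a microsomal glutathione transferase of chromosome 6, was at 7.03, 7.54 and 7.64 in Ts1Cje and 6.01, 6.52 and 5.25 in disomic mice. The difference was 1.48 ± 0.28 (limma adjusted p = 0.0134), and 1.14 without the dim array (adjusted p = 0.771), with no overlap either way. Pxmp4, a peroxisomal membrane protein of chromosome 2, was dim, at 3.11, 3.34 and 3.55 in Ts1Cje and 2.64, 2.97 and 2.49 in disomic mice, a difference of 0.64 (limma adjusted p = 0.0349), and of 0.53 without disomic replicate 3 (adjusted p = 0.984). With the pair as a block Etnppl and Ptgr2 passed too, but neither did so without disomic replicate 3 (limma adjusted p = 0.718 for Etnppl and 1.00 for Ptgr2). Etnppl, a phosphoethanolamine lyase, was at 6.28, 6.83 and 7.12 in Ts1Cje and 5.82, 5.54 and 5.55 in disomic mice, 1.11 with and 1.06 without disomic replicate 3 (limma adjusted p = 0.0181 with the block). Ptgr2, a prostaglandin reductase, was at 7.17, 7.52 and 7.23 in Ts1Cje and 6.66, 6.81 and 6.25 in disomic mice (limma adjusted p = 0.0305 with the block). Etnppl lies on chromosome 3. Ptgr2 lies on MMU12 outside the deleted end, as does 4930447C04Rik, which also passed with the block only. Whether the place on the rearranged chromosome had a part was not tested. Lower values in Ts1Cje did not reach the thresholds in any probe set (limma, 0 of 45101), while 1308 (2.9%) were lower at an unadjusted p under 0.05 and 377 (0.836%) without disomic replicate 3. Erdr1, a gene at the end of the sex chromosomes, did not follow genotype, with 8.92, 9.71 and 8.64 in Ts1Cje and 9.60, 4.57 and 8.62 in disomic mice, the lowest being disomic replicate 2.

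The lists of pathways and cell types outside the segments had 0 DEGs, with and without disomic replicate 3 (limma). Over all 18110 measured genes outside the segments there were 2 with and 0 without that array, so a count of 0 in short lists says little. Of 37 interferon-stimulated genes measured, 6 were expressed, with a median difference of 0.54 with and 0.32 without that array, beside 0.12 and -0.02 for expressed genes outside the segments. The largest difference of the 6 was 1.05 with and 0.71 without it. In 3 of the 6 every Ts1Cje value lay above every disomic value in both settings, beside 7.89% and 8.34% of the expressed genes outside the segments. H2-K1, a class I antigen-presenting molecule named after its values were seen, was at 6.79, 7.08 and 6.75 in Ts1Cje. In disomic mice it was at 5.93, 6.40 and 5.16, without overlap and with the dim array lowest (limma adjusted p = 0.498). H2-D1, of the same family, was at 8.53, 8.61 and 8.46 in Ts1Cje and 7.94, 8.05 and 7.19 in disomic mice. Near-identical sequences of this family can share probes, so these values may not be separate. B2m, the light chain of class I molecules and the brightest of the list, was at 10.54, 10.46 and 10.61 in Ts1Cje and 10.28, 10.33 and 10.10 in disomic mice, a difference of 0.30. The Jak-Stat list, the kinases and factors through which these receptors signal, had 9 of 22 genes expressed and medians of 0.07 and -0.16. Socs2, an inhibitor of cytokine signalling, was at 6.92, 7.33 and 7.61 in Ts1Cje and 6.54, 6.88 and 6.65 in disomic mice, a difference of 0.60 (limma adjusted p = 0.612).

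Genes of cholesterol synthesis and transport had a median of 0.29 with and 0.24 without disomic replicate 3, and 14 of 17 expressed genes were above 0 in both, beside 70.4% and 46.7% of the expressed genes outside the segments. Hmgcs1, an early enzyme of the pathway and the brightest of the list, was at 11.36, 11.19 and 11.34 in Ts1Cje and 11.26, 10.98 and 10.93 in disomic mice, a difference of 0.24. Npc2, which moves cholesterol out of lysosomes, was at 8.37, 8.94 and 8.95 in Ts1Cje and 8.04, 8.29 and 7.92 in disomic mice (limma adjusted p = 0.357). Idi1, an isomerase of the pathway, was at 8.99, 8.76 and 8.98 in Ts1Cje and 8.47, 8.56 and 8.42 in disomic mice (limma adjusted p = 0.456). Neither Npc2 nor Idi1 was a DEG, although the groups of each did not overlap, and Npc2 was singled out after its values were seen. In 3 of the 17 every Ts1Cje value lay above every disomic value, beside 7.89% of the expressed genes outside the segments. Without disomic replicate 3 there were 3 above and 1 below, beside 8.34% and 12.6%. Immediate-early genes, which neurons switch on with activity, had a median of -0.09 with and -0.29 without the dim array, and 2 and 1 of 14 expressed genes were above 0, beside the same 70.4% and 46.7%. Egr1, one of the brightest of the list, was at 10.88, 11.08 and 10.67 in Ts1Cje and 11.22, 11.13 and 10.98 in disomic mice. Fos, a transcription factor, was at 4.87, 6.12 and 5.02 in Ts1Cje and 6.93, 6.45 and 4.96 in disomic mice. Npas4, another, was at 4.92, 5.27 and 4.08 in Ts1Cje and 5.37, 6.68 and 4.93 in disomic mice. The groups of Fos and Npas4 overlapped, and both were singled out after their values were seen.

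Markers of other cell types and of cortical layers were also examined. The 17 expressed markers of cortical layers had a median of 0.02 with and -0.09 without disomic replicate 3. The 13 of interneurons had 0.09 and -0.01, and the 15 of astrocytes -0.05 and -0.12. The 13 expressed genes of myelin had 0.22 and 0.07, with 13 and 9 of them above 0. In 5 of the 13 every Ts1Cje value lay above every disomic value, with and without the dim array, beside 7.89% and 8.34% of the expressed genes outside the segments. These were Mog, Cldn11, Mal, Opalin and Fa2h, named after their values were seen, and none was a DEG. Mal, a proteolipid of compact myelin, had the largest difference of the 5 with all arrays, at 10.44, 10.41 and 10.73 in Ts1Cje and 9.89, 10.06 and 9.87 in disomic mice (0.58 with and 0.55 without disomic replicate 3, limma adjusted p = 0.647). Of 10 choroid plexus genes measured, 9 had a mean under 3, and Ttr (transthyretin) was at 2.62, 9.28 and 7.21 in Ts1Cje and 4.56, 4.03 and 4.69 in disomic mice, high in Ts1Cje replicates 2 and 3. The 5 blood genes measured had means under 3, and the 5 expressed markers of striatum had medians of -0.01 and 0.09. The part of these cells in the differences above was not tested.

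Whether a difference was particular to P84 or to the cortex was tested by contrasts in the same fit. At P1 the cortex groups also differed in the markers of sex. The difference (Ts1Cje minus disomic) was 3.01, 2.03 and 2.26 in the probe sets of Xist and -2.45 in the brighter one of Eif2s3y, and none passed. The part of sex in the P1 values here and below was not tested. For P84 minus the mean of P1, P15 and P30 in cortex, 0 of 45101 probe sets passed with all arrays and 0 without disomic replicate 3 (limma), and 1952 (4.33%) and 587 (1.3%) had an unadjusted p under 0.05. Of the 38 expressed triplicated genes 5 had such a p with all arrays, Brwd1, Gart, Hmgn1, Prdm15 and Psmg1, all with a larger difference at P84, and 2 had it without the dim array, Brwd1 and Slc5a3. Brwd1 differed by 0.54 at P1, 0.47 at P15, 0.56 at P30 and 1.11 at P84 in cortex, and its contrast of 0.58 did not pass (limma adjusted p = 0.989). For cortex minus cerebellum at P84 0 probe sets passed in either setting (limma), and 1634 (3.62%) and 700 (1.55%) had an unadjusted p under 0.05. For cortex minus hippocampus, where disomic replicate 3 was dim as well, 0 passed with all arrays and 1 without the dim cortex array (limma), and 3746 (8.31%) and 3466 (7.68%) had such a p. Itgb8 differed by -0.93, -0.93, -1.21 and -0.62 from P1 to P84 in cortex, and at P84 by -0.62 in cortex, -1.19 in hippocampus and -1.41 in cerebellum. The contrast of cortex minus cerebellum was 0.79 for Itgb8 and did not pass (limma adjusted p = 1.00).

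The median difference of the same 38 genes was 0.66 at P1, 0.60 at P15, 0.65 at P30 and 0.82 at P84 in cortex, with 0.70 at P84 when disomic replicate 3 was left out. At P84 it was 0.63 in hippocampus, with its dim disomic replicate 3 kept in, and 0.70 in cerebellum. The median contrast against the earlier ages was 0.13 with and -0.03 without the dim array. Across the 38 genes the rank correlation with P84 cortex was 0.18 at P1, 0.66 at P15 and 0.51 at P30, and 0.32 in hippocampus and 0.60 in cerebellum at P84. Without disomic replicate 3 of P84 cortex these were 0.25, 0.58, 0.49, 0.41 and 0.65. These correlations are across genes, which are not independent replicates, on the same probe sets, and are descriptions.

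**Figure D5:**
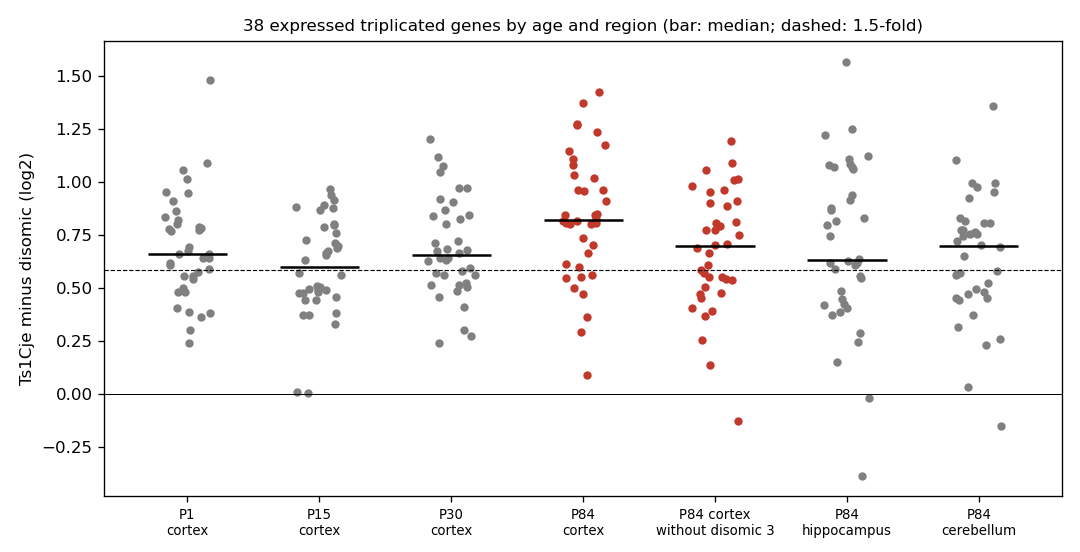
Difference (Ts1Cje minus disomic, log2) of the expressed triplicated genes in cortex at the 4 ages and in hippocampus and cerebellum at P84. The median is 0.82 at P84 in cortex with all arrays and 0.70 without disomic replicate 3, against 0.60 to 0.66 at the earlier ages.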

How the data were processed

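Gene expression was measured on Affymetrix mouse genome arrays. The authors normalized the probe intensities with GCRMA (version not given in the sources used here) and deposited log2 values for 45101 probe sets, which were used as deposited. No detection calls or depth were used, and 3 arrays per group limit the precision. Of the probe sets 34958 have 1 gene symbol in the platform annotation, 932 several and 9211 none. Differences were tested in limma 3.58.1 (R 4.3.3) on all 72 arrays with 24 group means. The fit was checked on simulated data with independent arrays, none of them dim. The main fit took the 72 arrays as independent, although the regions may come from the same mice. With arrays of equal genotype, age and number taken as 1 mouse, and the mouse as a random block, 22 probe sets passed. Each gene was represented by the probe set that was brightest on average. Triplicated genes lie on MMU16 between Sod1 and Zbtb21, both as placed in the reference gene table. Named were genes with a called probe set, the 3 highest and 3 lowest expressed triplicated genes, genes the study followed by RT-qPCR in cortex, and in each list up to 4 further members with the highest means. Members and lists were chosen with earlier results of these data known. Deviations from the group means of equally numbered Ts1Cje and disomic mice correlated at 0.52, 0.39 and 0.21 over 13472 probe sets. Those of different numbers correlated at -0.48 to 0.16. With littermates in the design the numbers were taken as pairs in the fits with a block, although the labels do not give the pairs. The main fit had no pairs. Whether the numbers mark litters or the order of processing was not tested. Alternatives covered each array left out, pairing, scaling, filtering, weights and the arrays fitted. Dscam, Etnppl, Ptgr2, H2-K1, Socs2, Npc2, Fos, Npas4, Mog, Cldn11, Mal, Opalin, Fa2h, Dlg4, Pfn1, Septin9 and Mid1 were named outside the rule, after their values were seen.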

Additional observations from a re-analysis of the deposited data

Results flagged for a closer look

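Of the contrasts between ages and regions, 1 probe set stood out, that of Ppm1a, a protein phosphatase gene of chromosome 12 outside the deleted end. Without disomic replicate 3 of P84 cortex, its difference (Ts1Cje minus disomic) in cortex minus that in hippocampus was -2.03 ± 0.36 (SE, limma adjusted p = 0.0394). With all arrays it was -1.81 (adjusted p = 0.148). Disomic replicate 3 of hippocampus, which was dim as well, was kept in both settings. The levels were low: in cortex 3.56, 3.57 and 3.96 in Ts1Cje and 4.01, 4.68 and 3.71 in disomic mice, and in hippocampus 4.48, 5.03 and 4.63 in Ts1Cje and 3.68, 2.81 and 3.50 in disomic mice. The hippocampus groups did not overlap, and the cortex groups overlapped when the dim array was included.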

How the results depend on the processing

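The number of DEGs depended on the setting more than the differences did. Against 20 with all arrays, leaving out 1 array gave 1 to 32, with the lowest without disomic replicate 3 and the highest without disomic replicate 2. It was 31 with the replicate block (equal replicate numbers) within each age and 38 with the block over all ages. With a common 75th percentile it was 12, and with array quality weights 64. Only the 6 arrays gave 1, and 1 with the block. Settings chosen after seeing the data left out the dim array and also filtered at a mean of 5 (3), used only cortex (2) or used the block (5), or left out 3 dim arrays (1). Triplicated genes with a DEG, 12 with all arrays, were 0 to 14 when 1 array was left out, 7 with the common percentile, 19 with weights, 0 in both fits of the 6 arrays, and without the dim array 2 with the filter, 1 in cortex only and 2 with the block, and 0 without 3 dim arrays. The block added Smim11, Morc3, Synj1, Mrps6, Ttc3, Ptgr2, Etnppl, 4930447C04Rik and a second Sod1 probe set among the 39 genes and probe sets followed, and changed no other call of these. The median difference of triplicated genes was 0.50 with no filter and 0.30 over all their probe sets. DEGs of the deleted end were 2 with weights. The contrast against earlier ages gave 0 to 1 when 1 array was left out, that against hippocampus 0 to 1, 4 with weights and 1 without the dim array with the block, and that against cerebellum 2 with weights. The flat Sod1 probe set turned to -0.13 with quantile normalization, -0.15 with the common percentile, -0.10 with weights, -0.19 without the dim array (also with the filter, in cortex only or without 3 dim arrays) and -0.18 with the block as well, and ranged between -0.19 and 0.15 when 1 array was left out. The causes were not tested.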

Other observations

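Without disomic replicate 3, some of the largest differences outside the segments came from genes that varied within genotype. Dlg4, a scaffold of the postsynaptic density, was at 7.81, 4.23 and 3.68 in Ts1Cje and 8.53, 7.04 and 4.62 in disomic mice in 1 probe set, with replicate 1 the highest of each group. Pfn1, an actin-binding protein, was at 9.23, 4.12 and 4.30 in Ts1Cje and 9.04, 7.10 and 5.70 in disomic mice, and Septin9, a cytoskeletal protein, at 7.10, 4.72 and 5.34 in Ts1Cje and 7.60, 6.83 and 6.02 in disomic mice. In each of these replicate 1 was the highest of its genotype, and none was a DEG. The 3′ minus 5′ difference of the Actb control probe sets, a measure of RNA quality, was lowest on replicate 1 of each genotype. It was 0.83, 1.36 and 1.48 in Ts1Cje and 0.90, 1.19 and 1.18 in disomic mice. That of Gapdh was between -0.16 and 0.07 on all 6 arrays. The part of RNA quality in the differences was not tested. Mid1, a gene beside Erdr1 at the end of the X chromosome, was at 5.05, 6.57 and 4.14 in Ts1Cje and 3.97, 2.52 and 3.56 in disomic mice, a difference of 2.01 without disomic replicate 3 (limma adjusted p = 1.00) and of 1.90 with all arrays (adjusted p = 0.565). The mean of this probe set, 4.30, was under the level taken as expressed. Other probe sets of Mid1, under 3 on all 6 arrays, differed by 0.04 and -0.08 with all arrays.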
